A study of Mus musculus with 2 samples.

Results

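The genes described here are 9 salt transport genes of the distal nephron, Slc12a1, Kcnj1, Bsnd, Umod, Casr, Cldn10, Cldn16, Slc12a3 and Trpm6. They were chosen by name, and each symbol matched 1 row among the 32285 genes of both libraries, so all 9 are accounted for at each age. Single-nucleus RNA sequencing of pooled mouse kidneys gave 1 library from embryos (E18.5) and 1 library from newborns 3 days after birth (P3). The E18.5 kidneys carried floxed alleles of the transcription factors Myc and Mycn (Mycf/f;Mycnf/f) without Cre, so that both genes were intact, on a mixed background. The P3 kidneys were wild type on the C57BL/6J background according to the labels, whereas the methods of the study name a mixed background. Male and female kidneys were pooled at each age. With 1 library per age there was no replicate and no test. The libraries also differed in genotype, background and the release of Cell Ranger, which cannot be told apart from age, and every interval below is a 95% interval that covers counting error only.

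The thick ascending limb of the loop of Henle reabsorbs salt without water, which dilutes the tubular fluid and drives the concentration of urine. A carrier in its luminal membrane takes up sodium, potassium and chloride, potassium returns to the lumen through a channel, chloride leaves on the blood side, and the resulting voltage pulls calcium, magnesium and sodium between the cells through claudins. The distal convoluted tubule lies just downstream and uses a sodium-chloride carrier without potassium, together with a luminal magnesium channel. Inherited loss of Slc12a1, Kcnj1 or Bsnd causes Bartter syndrome, loss of Slc12a3 causes Gitelman syndrome, and loss of Cldn16 or Trpm6 causes low blood magnesium.

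Slc12a1 (ENSMUSG00000027202, chr2:125152505-125230002 on the + strand of mm10) encodes NKCC2, the sodium-potassium-chloride carrier that furosemide blocks. Kcnj1 (ENSMUSG00000041248, chr9:32372493-32399197, +) encodes ROMK, the channel that recycles potassium. Bsnd (ENSMUSG00000025418, chr4:106483456-106492283, -) encodes barttin, an accessory protein needed for chloride exit on the blood side. Umod (ENSMUSG00000030963, chr7:119462711-119479282, -) encodes uromodulin, the most abundant protein of normal urine. Casr (ENSMUSG00000051980, chr16:36493696-36562141, -) encodes the calcium-sensing receptor, which restrains salt and calcium uptake. Cldn10 (ENSMUSG00000022132, chr14:118787908-118875489, +) encodes claudin-10, whose isoforms form pores for sodium or for anions. Cldn16 (ENSMUSG00000038148, chr16:26463135-26482765, +) encodes claudin-16, needed for calcium and magnesium reabsorption. Slc12a3 (ENSMUSG00000031766, chr8:94329201-94366214, +) encodes NCC, the thiazide-sensitive carrier of the distal convoluted tubule. Trpm6 (ENSMUSG00000024727, chr19:18749983-18892511, +) encodes the luminal magnesium channel. Within the mm10 annotation an antisense gene, Gm14002, lies inside Slc12a1 and another, Gm44588, overlaps Umod. The counts do not separate the isoforms of Cldn10.

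At E18.5, 21270 nuclei with 77321253 unique molecular identifiers (UMIs, counted RNA molecules) passed the quality limits, and 11765 nuclei with 70055219 UMIs passed at P3. The median nucleus held 3132.5 UMIs at E18.5 and 4534.0 at P3, and 69 barcodes occurred in both libraries. Nuclei were clustered without the 9 genes and without 33 other genes of the pathway, and 13 classes were named at each age from markers outside these lists. The clusters left unnamed held 28.7% of the nuclei at E18.5 and 26.1% at P3. Levels are given as UMIs of the gene per 1000000 UMIs of the class (CPM), and classes are ordered among the named ones only.

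Thick ascending limb-like nuclei numbered 239 at E18.5, or 1.12% of all nuclei, and 303 at P3, or 2.58%. Distal convoluted tubule-like nuclei numbered 158 and 124. The classes depended on the clustering: with Leiden clustering neither was named at either age, and without called doublets the E18.5 distal convoluted tubule-like class grew to 557 nuclei. The markers that named the classes were outside the gene list, and their levels describe the classes without testing the names. Of the 8 thick limb markers, 7 were higher in thick limb-like than in distal convoluted tubule-like nuclei at each age. The exceptions were Tmem72 at E18.5 (298 against 365 CPM) and Esrrb at P3 (203 against 242 CPM). All 7 markers of the distal convoluted tubule were higher in distal convoluted tubule-like nuclei at E18.5, and 6 of 7 at P3. The sodium-calcium exchanger Slc8a1, one of these, stood at 17132 and 33827 CPM there, against 418 and 277 CPM in thick limb-like nuclei. Pvalb, a marker of the early distal convoluted tubule, had no UMI in the P3 class and stood at 17.6 CPM at E18.5. Called doublets made up 1.67% and 0.66% of the thick limb-like nuclei, and 0% and 1.61% of the distal convoluted tubule-like nuclei. The shares were 16.4% and 16.8% over each whole library.

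Slc12a1 was highest in thick limb-like nuclei, while all other nuclei together held 239 CPM at E18.5 and 548 CPM at P3. As the other nuclei were far more numerous, most Slc12a1 UMIs lay outside this class at both ages. The level of Slc12a1 was 13509 CPM (11599 UMIs, interval 13264 to 13757) in thick limb-like nuclei at E18.5 and 15513 CPM (22779 UMIs, interval 15312 to 15716) at P3. The next named class was the early nephron-like class with 944 CPM at E18.5, a ratio of 14.3 (13.8 to 14.9), and the collecting system-like class with 779 CPM at P3, a ratio of 19.9 (19.0 to 20.8). At P3, 3 unnamed clusters lay between them, at 2962, 2238 and 1438 CPM. Endothelium-like nuclei, which should not use the gene, still held 86.5 and 119 CPM, and levels of this order in other classes were read as background. Over the endothelium-like clusters, some of which were mostly called doublets, the level ran from 38.6 to 139 CPM at E18.5 and from 61.1 to 197 CPM at P3. After each nucleus was thinned to 1000 UMIs, 98.7% of 238 thick limb-like nuclei at E18.5 and 100% of 303 at P3 kept a Slc12a1 UMI, with a median of 12 and 15 per nucleus. Of endothelium-like nuclei 6.98% and 10.9% did so. Before thinning, at median depths of 3346 and 3153 UMIs, the shares at E18.5 were 99.6% in thick limb-like and 18.8% in endothelium-like nuclei.

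Kcnj1 did not single out the thick limb. It stood at 222 CPM in thick limb-like and 172 CPM in distal convoluted tubule-like nuclei at E18.5, a ratio of 1.30 (1.002 to 1.69). At P3 the levels were 315 and 175 CPM, with a ratio of 1.80 (1.47 to 2.21). No other named class at E18.5 exceeded 25.3 CPM, and endothelium-like nuclei held 4.45 and 6.53 CPM. The ROMK channel is known from both segments.

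Bsnd was shared more widely still, with its highest level outside the named segments. Intercalated-like nuclei, the acid-base cells of the collecting duct, held 45.0 CPM (13 UMIs, interval 24.0 to 77.0) at E18.5 and 50.3 CPM (17 UMIs, interval 29.3 to 80.6) at P3. Distal convoluted tubule-like nuclei held 19.5 and 28.0 CPM, and thick limb-like nuclei 15.1 and 41.5 CPM. With 10 to 61 UMIs behind each value, neighbours in this order did not differ beyond counting error at either age. The 3 classes together stood apart from the endothelium-like level of 1.42 and 0.934 CPM.

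Umod, Casr and Cldn16 were highest in thick limb-like nuclei at both ages. Umod stood there at 92.0 CPM at E18.5 and 213 CPM at P3, against 17.2 CPM in the early nephron-like class and 24.0 CPM in the mural-like class as the next. The mural-like class at P3 had only 32 nuclei, and an endothelium-like cluster reached 19.6 CPM at that age. Casr stood at 268 and 433 CPM, against 62.3 CPM in intercalated-like nuclei at E18.5 and 49.0 CPM in distal convoluted tubule-like nuclei at P3. Cldn16 stood at 66.4 and 68.1 CPM, with next classes at 7.80 and 5.11 CPM, and was at 0 UMIs in distal convoluted tubule-like nuclei at P3, where 3 UMIs would be 4.203 CPM and the 95% interval reached 5.17 CPM. Casr was at 0.890 and 2.33 CPM in endothelium-like nuclei, and its intervals in intercalated-like and distal convoluted tubule-like nuclei lay above that level at both ages.

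Cldn10 was highest in the proximal tubule. Proximal tubule-like nuclei held 238 CPM at E18.5 and 580 CPM at P3, and thick limb-like nuclei held 186 and 182 CPM. The ratio between them was 1.28 (1.08 to 1.51) in the E18.5 library and 3.19 (2.83 to 3.62) in the P3 library. Of all Cldn10 UMIs, 35.4% came from proximal tubule-like and 3.57% from thick limb-like nuclei at E18.5, and 81.9% and 1.77% at P3. At E18.5 the proximal tubule-like clusters stood at 180 CPM (1279 nuclei) and 356 CPM (510 nuclei), the former no higher than thick limb-like nuclei. The P3 proximal tubule-like class included a cluster in which 90.3% of nuclei were called doublets. Cldn10 stood there at 406 CPM, against 980 and 337 CPM in the other proximal tubule-like clusters. An unnamed P3 cluster with 80.0% called doublets stood at 711 CPM.

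Slc12a3 and Trpm6 marked the distal convoluted tubule together. Slc12a3 stood at 4548 CPM in distal convoluted tubule-like nuclei at E18.5 and 6031 CPM at P3, and Trpm6 at 482 and 916 CPM. The next classes for Slc12a3 held 74.5 CPM at E18.5 (thick limb-like, ratio 61.0, interval 47.6 to 79.5) and 150 CPM at P3 (podocyte-like, ratio 40.3, interval 34.9 to 46.9). In the thick limb-like class at E18.5, 1 nucleus held 47 of the 64 UMIs, and the level was 11.9 CPM without the 3 highest nuclei. A collecting system-like cluster of 612 nuclei with 3.27% called doublets stood at 104 CPM at E18.5, and the other collecting system-like cluster at 12.0 CPM. The podocyte-like level came from 1 cluster of 111 nuclei with 21.6% called doublets, at 268 CPM. The other podocyte-like cluster, with 2.96% called doublets, stood at 16.6 CPM. The next classes for Trpm6 held 18.6 CPM (thick limb-like) and 37.6 CPM (collecting system-like). After thinning, 77.7% of the distal convoluted tubule-like nuclei at E18.5 and 71.8% at P3 kept a Slc12a3 UMI, and 34.4% and 46.0% kept a Trpm6 UMI. In endothelium-like nuclei the shares were at most 2.63% and 0.632%. Among the named classes, 7 of the 9 genes were highest in a distal class at each age, the exceptions being Bsnd and Cldn10. The share of all genes that were highest in a distal class was not computed, so this count is a description only. Unnamed clusters stood above the next named class for Slc12a3 at both ages (103 and 223 CPM) and, at P3, for Umod (53.0 CPM), Casr (54.8 CPM), Cldn16 (10.7 CPM) and Trpm6 (40.1 CPM). The Slc12a3 and Trpm6 values came from clusters with 78.6% called doublets at E18.5 and 83.5% at P3. Those of Umod, Casr and Cldn16 came from a P3 cluster with 2.31%.

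**Figure D1:**
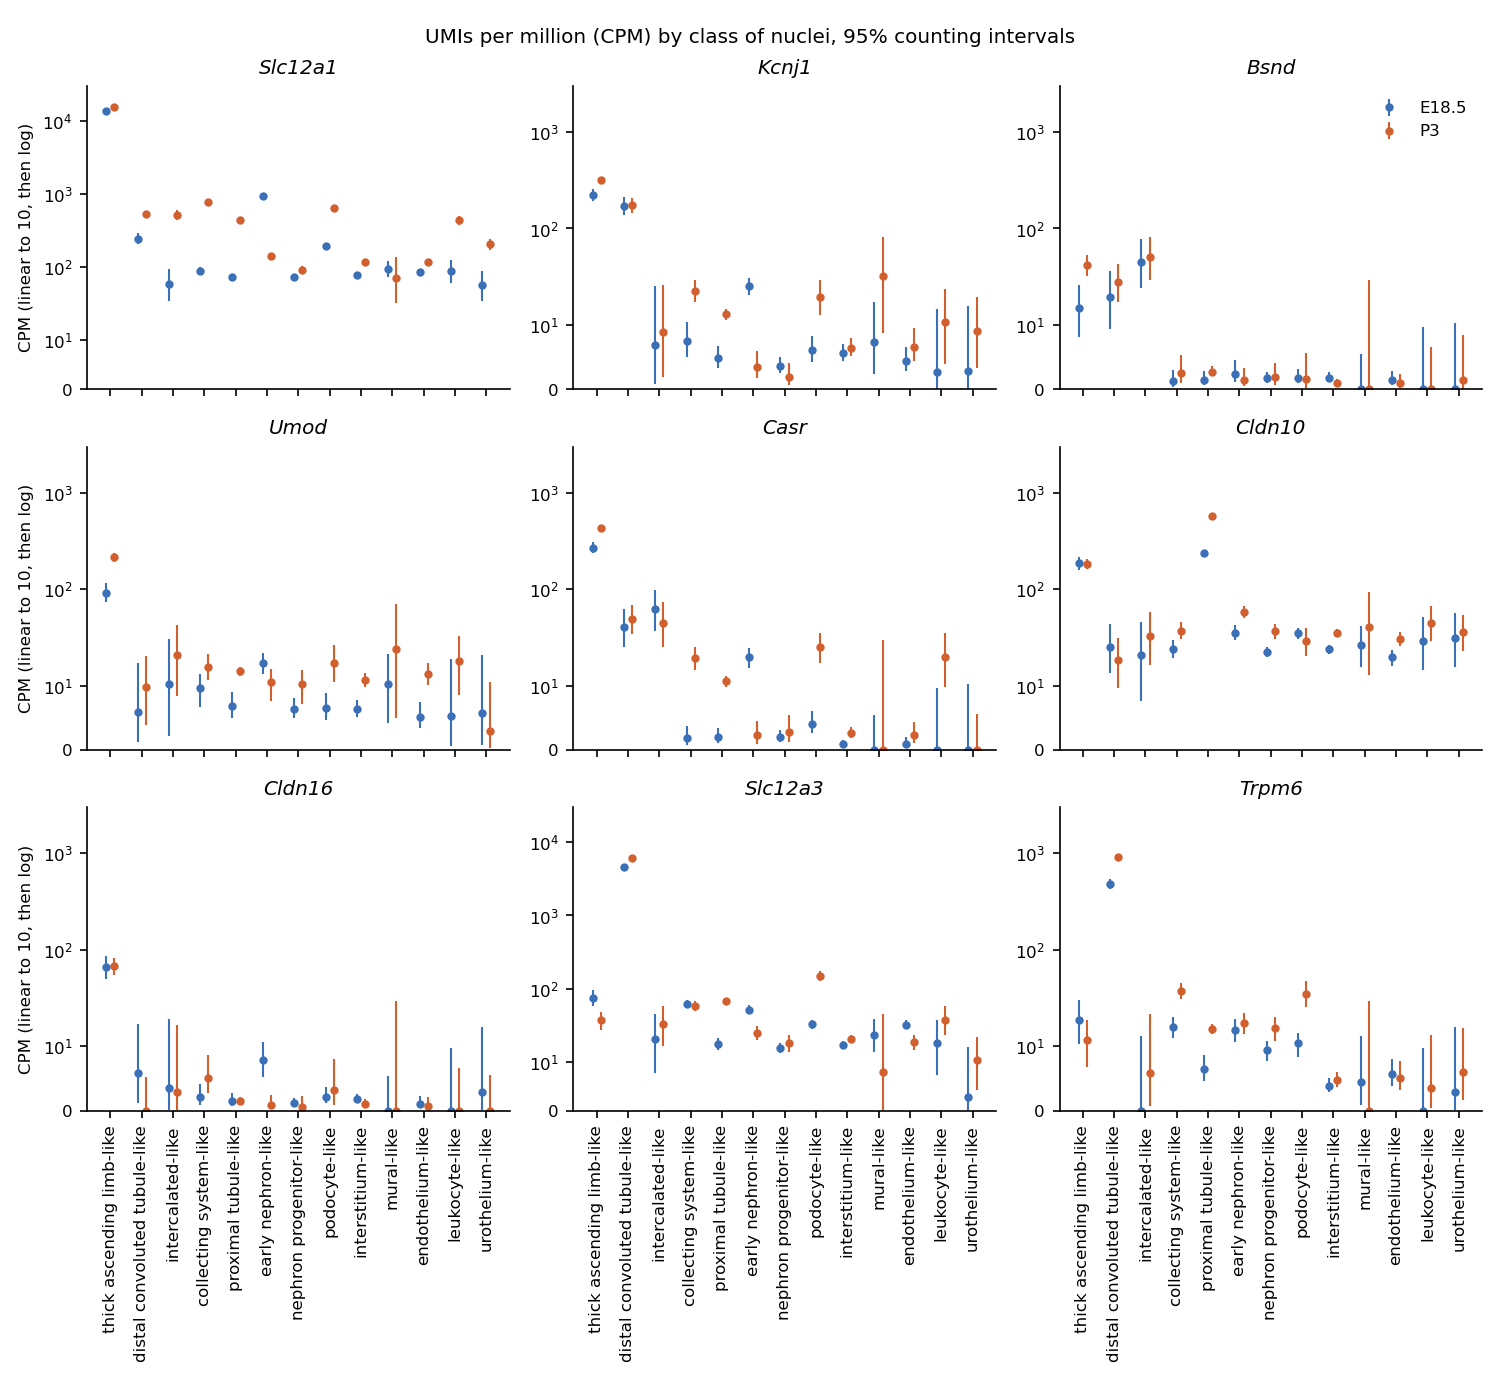
Level of each gene in CPM (vertical axis, linear up to 10 and logarithmic above) in the 13 named classes (horizontal axis) at E18.5 (blue) and P3 (orange), with 95% counting intervals. Slc12a1, Umod, Casr and Cldn16 peak in thick limb-like nuclei, Slc12a3 and Trpm6 in distal convoluted tubule-like nuclei and Cldn10 in proximal tubule-like nuclei. Kcnj1 stands at 222 and 172 CPM in the 2 distal classes at E18.5. Bsnd is highest in intercalated-like nuclei, but within counting error of the next class at each age.

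Few distal nuclei held both carriers. Among 395 nuclei of both distal classes at E18.5, each thinned to 1000 UMIs, 245 held a Slc12a1 UMI, 129 held a Slc12a3 UMI and 12 held both, where independent detection would give 80.0. The ratio of observed to expected was 0.150 (0.0775 to 0.262). At P3, 20 of 427 nuclei held both, where 71.9 would be expected, a ratio of 0.278 (0.170 to 0.430). These low ratios follow from the difference in level between the classes. Within thick limb-like nuclei, 6 held both at E18.5 where 6.91 would be expected, and 6 at P3 where 6 would be. Nearly all of these nuclei held Slc12a1, and at P3 each held at least 2 UMIs of it. The comparison therefore could not show a separation in this class. Within distal convoluted tubule-like nuclei 6 held both where 7.77 would be expected, and 14 where 14.4 would be. No separation was seen inside the distal convoluted tubule-like class.

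With at least 3 of 1000 UMIs as a limit for a nucleus rich in a carrier, 557 nuclei of the E18.5 library were rich in Slc12a1, 161 in Slc12a3 and 1 in both. At P3 the numbers were 720, 131 and 6. Thick limb-like nuclei held 41.8% of the Slc12a1-rich nuclei at both ages, and distal convoluted tubule-like nuclei 64.0% and 61.1% of the Slc12a3-rich nuclei. Many of the others were in clusters of called doublets: 176 of the Slc12a1-rich nuclei at E18.5 were in an unnamed cluster with 78.6% called doublets, and 167 at P3 were in an unnamed cluster with 83.5%. A further 104 at E18.5 lay in the early nephron-like cluster led by Nrcam and Sim2, and 53 and 24 at P3 lay in unnamed clusters led by Nrcam and Sim2 and by Sgcz, Ranbp3l and Prox1, which had at most 4.13% called doublets. The level of Slc12a1 was 944 CPM in the E18.5 cluster and 2238 and 2962 CPM in the P3 clusters.

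Most UMIs of the carrier of the other segment came from few nuclei. Of the 64 Slc12a3 UMIs in thick limb-like nuclei at E18.5, 1 nucleus held 47, and at P3 1 nucleus held 31 of 54. Without the 3 highest nuclei the level was 11.9 CPM at E18.5 and 13.1 CPM at P3. Of the Slc12a1 UMIs in distal convoluted tubule-like nuclei, the 3 highest nuclei held 69.8% of 126 at E18.5 and 59.9% of 379 at P3. Without them the level was 76.0 and 225 CPM. Before thinning, 42.7% of these nuclei held a Slc12a1 UMI at P3 and 17.1% at E18.5. Their median depths were 5054.5 and 3082.5 UMIs, so these shares were not taken at like depth.

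Within distal convoluted tubule-like nuclei Slc12a3 and Trpm6 were detected together in 49 of 157 nuclei at E18.5, where 42.0 would be expected, and in 52 of 124 at P3, where 40.9 would be expected. The ratios were 1.17 (0.864 to 1.54) and 1.27 (0.949 to 1.67), and both intervals included 1. At P3 Slc12a3 was present at a median of 6 per 1000 UMIs, but the lower quartile of nuclei was at 0, and the highest nucleus had 21.

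**Figure D2:**
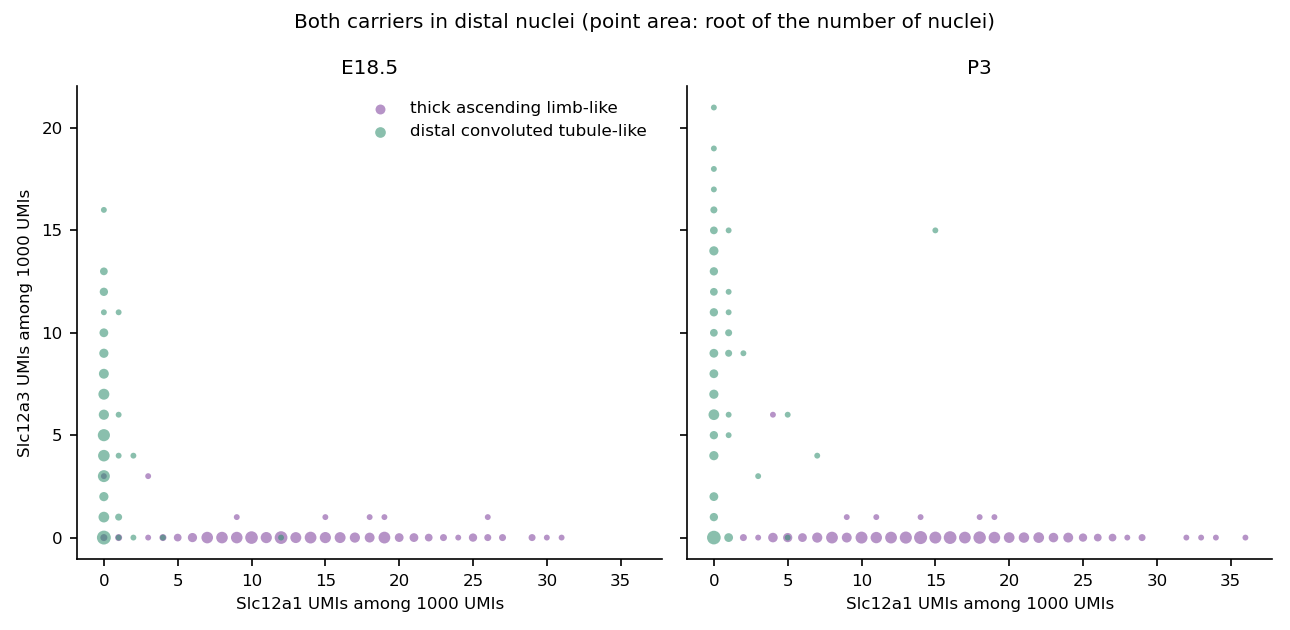
Slc12a1 (horizontal axis) and Slc12a3 (vertical axis) UMIs among 1000 UMIs in each nucleus of the thick ascending limb-like (purple) and distal convoluted tubule-like (green) classes at E18.5 and P3, the size of a point growing with the number of nuclei. Nearly all nuclei lie along 1 of the 2 axes, with 12 of 395 nuclei at E18.5 and 20 of 427 at P3 holding both.

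The distal nuclei were clustered again on their own, still without the 9 genes, and gave 4 sub-clusters at each age. These were paired across the ages by their shared leading genes, out of 10 per sub-cluster. The Pappa2-led pair shared 8, the Nrxn3-led 6, the Slc8a1-led 5 and the Plau-led 3. The sub-cluster led by Nrxn3, Enox1 and Foxq1 had 117 nuclei at E18.5 and 73 at P3, the one led by Plau, Egfl6 and Sgcz had 75 and 204, and the one led by Pappa2, Nos1 and Robo2 had 45 and 26. The fourth, led by Slc8a1, Calb1 and Scnn1g, held nearly all of the distal convoluted tubule-like nuclei. The collecting system marker Gata3 stood there at 138 and 137 CPM, against at most 34.2 and 17.3 CPM in the other sub-clusters. Among the other collecting system markers, Hsd11b2 (25.2 and 47.6 CPM), Aqp2 (29.1 and 16.8 CPM) and Aqp3 (17.4 and 12.6 CPM) were also highest there at both ages. Some of these differences were small, as for Aqp2 at P3, with up to 16.2 CPM in the other sub-clusters. Fxyd4, Wnt9b and Avpr2 were highest there at E18.5 only, and Ret and Wnt11 at neither age. Whether this class also held nuclei from further downstream was not tested. Nos1 and Pappa2 are known from the macula densa, the sensor plaque at the end of the thick limb, but no sub-cluster was named. The Nrxn3-led sub-cluster held few UMIs of some thick limb markers at P3, with Ptger3 at 16.2 CPM and Irx1 at 2.69 CPM, and held the distal convoluted tubule marker Tmem52b at 598 CPM. At E18.5 these stood at 198, 16.7 and 316 CPM. The sub-clusters hold few nuclei of 1 library each, and nuclei are not replicates, so the following levels are a description at 2 ages.

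Slc12a1 was close to even across the 3 thick limb sub-clusters. It stood at 14240 CPM in the Nrxn3-led, 12631 CPM in the Plau-led and 13753 CPM in the Pappa2-led sub-cluster at E18.5, and at 16099, 15469 and 14019 CPM at P3. Against this even level of the carrier, the claudins and the calcium-sensing receptor were split.

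Cldn16 and Casr were highest in the Nrxn3-led sub-cluster. Cldn16 stood there at 120 CPM (50 UMIs) at E18.5 and 151 CPM (56 UMIs) at P3, against 13.7 CPM (4 UMIs) and 44.9 CPM (44 UMIs) in the Plau-led sub-cluster. The ratio was 8.75 (3.21 to 33.4) in the E18.5 library and 3.36 (2.22 to 5.10) in the P3 library. Casr stood at 385 and 768 CPM against 143 and 333 CPM, ratios of 2.68 (1.90 to 3.86) and 2.31 (1.96 to 2.71). Casr and Cldn16 thus had the same order at both ages.

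Cldn10 and Umod had the opposite order. Cldn10 stood at 355 CPM in the Plau-led and 103 CPM in the Nrxn3-led sub-cluster at E18.5, and at 253 and 29.6 CPM at P3. The level of the Nrxn3-led over the Plau-led sub-cluster was 0.289 (0.198 to 0.417) and 0.117 (0.0577 to 0.213). Umod stood at 174 CPM in the Plau-led and 62.2 CPM in the Nrxn3-led sub-cluster at E18.5, and at 268 and 118 CPM at P3, ratios of 0.357 (0.214 to 0.583) and 0.442 (0.313 to 0.610). At P3 the Nrxn3-led level of Cldn10 was no higher than the 30.6 CPM of endothelium-like nuclei. The 2 claudin genes thus peaked in different sub-clusters at both ages.

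The Pappa2-led sub-cluster was low for several of the genes. Umod had 2 UMIs there at E18.5 (13.9 CPM) and 6 at P3 (51.3 CPM), and its level over the Plau-led sub-cluster was 0.0797 (0.00939 to 0.303) and 0.191 (0.0696 to 0.422). Cldn16 was found with 4 UMIs at the earlier age and none at P3, and Cldn10 stood at 90.2 and 68.4 CPM. Kcnj1 stood at 201 CPM at E18.5, within counting error of the other sub-clusters, and at 145 CPM at P3, below the Plau-led 355 CPM with a ratio of 0.410 (0.236 to 0.665).

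Per nucleus, the split was not resolved. At 1000 UMIs, Casr and Cldn10 were detected together in 3 of 238 thick limb-like nuclei at E18.5, where 6.996 would be expected, and in 6 of 303 at P3, where 12.9 would be expected. Casr and Cldn16 were together in 12 of 303 at P3, where 6.45 would be expected. The ratios were 0.429 (0.0884 to 1.25), 0.465 (0.171 to 1.01) and 1.86 (0.961 to 3.25), and each interval included 1. At 2000 UMIs the ratios were 0.905, 0.785 and 1.52, nearer to 1.

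**Figure D3:**
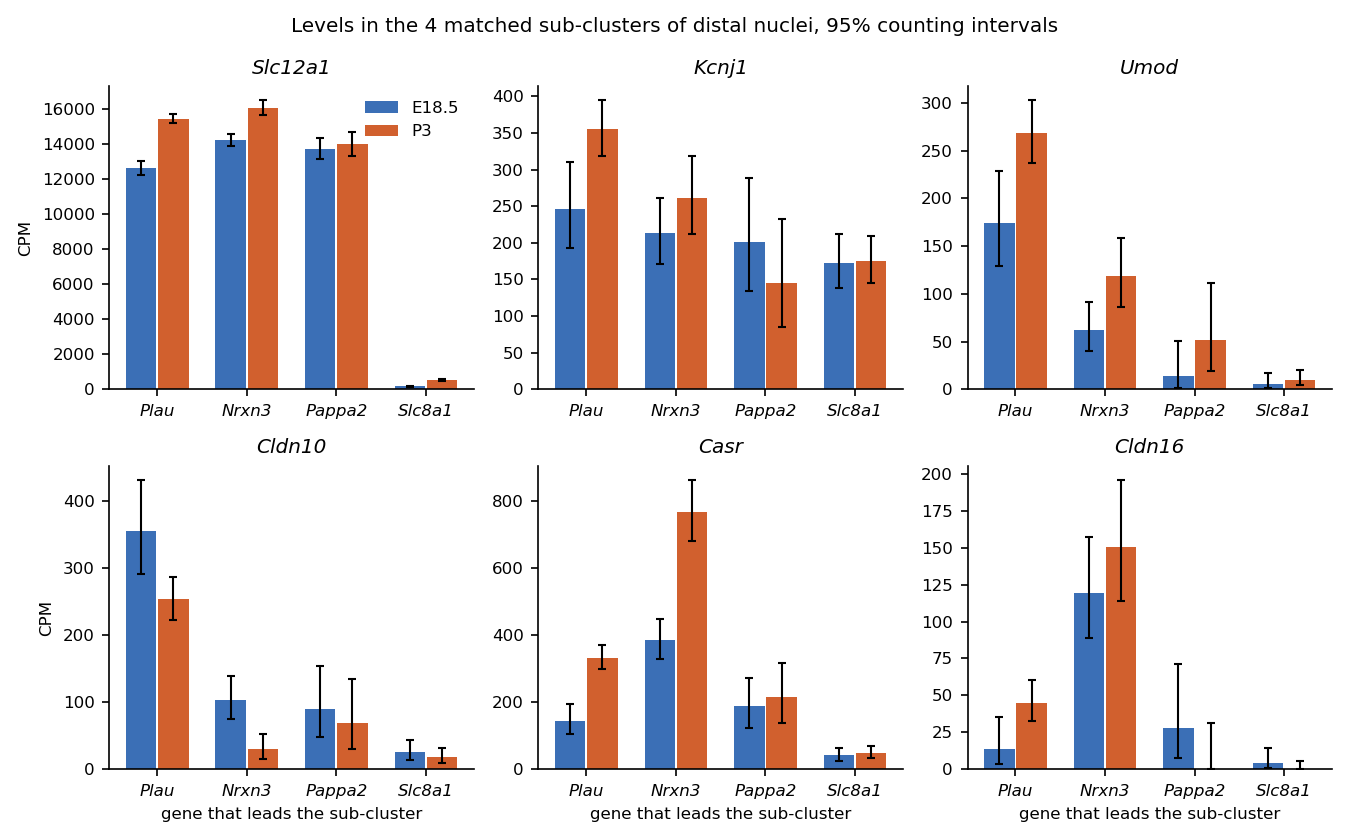
Level in CPM (vertical axis, from 0) of 6 of the genes in the 4 sub-clusters of distal nuclei (horizontal axis, named by a leading gene) at E18.5 (blue) and P3 (orange), with 95% counting intervals as bars. Slc12a1 is between 12631 and 16099 CPM in the 3 thick limb sub-clusters, whereas Cldn10 and Umod are highest in the Plau-led and Casr and Cldn16 in the Nrxn3-led sub-cluster at both ages.

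Of the 33 other pathway genes, 17 were at least 2-fold higher in thick limb-like nuclei than in all other nuclei at E18.5 and 17 at P3. Among all genes 6.84% and 6.72% passed the same limit. In distal convoluted tubule-like nuclei 17 passed at each age, against 8.25% and 7.76% of all genes. The list was chosen with earlier results of these data known, so these counts describe it and do not test it. All 3 genes of the sodium pump passed in both classes at both ages, and so did the potassium channels Kcnj10 and Kcnj16 of the blood side. Kcnj16 stood at 553 and 566 CPM in thick limb-like and 677 and 759 CPM in distal convoluted tubule-like nuclei, against 103 to 229 CPM in the nuclei outside.

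Of 8 carrier kinases and their regulators, 4 passed in thick limb-like nuclei (Wnk1, Wnk4, Stk39 and Klhl3) and 5 in distal convoluted tubule-like nuclei (the same with Sgk1). Klhl3, the adaptor that removes WNK kinases, was 4.23 (3.52 to 5.11) times as high in distal convoluted tubule-like as in thick limb-like nuclei at E18.5, with 804 and 190 CPM, and 6.27 (5.49 to 7.18) times at P3, with 1255 and 200.2 CPM. Of 7 genes of paracellular and magnesium transport, Cldn19, the partner of claudin-16, passed in thick limb-like nuclei at both ages with 53.6 and 102 CPM. Trpm7, which forms channels with Trpm6, passed in distal convoluted tubule-like nuclei with 1933 and 1492 CPM, as did Cnnm2 with 577 and 593 CPM. In thick limb-like nuclei Cnnm2 passed at E18.5 only, at 135 CPM against 56.4 CPM in the other nuclei, and Egf, described below, passed at P3 only. Of the 5 related carriers only Slc9a3, the sodium-proton exchanger, passed, in thick limb-like nuclei (278 and 338 CPM). Slc12a2, the carrier NKCC1, was below the level outside in both classes, with 55.9 and 28.6 CPM in thick limb-like nuclei against 136 and 86.1 CPM in all other nuclei. Of the 4 genes of transcription and hormone receptors, Esrrg, Ppargc1a and the mineralocorticoid receptor Nr3c2 passed in both classes at both ages.

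Between the ages, a gene was counted as raised or lowered in a class when its level, with 1 CPM added, differed at least 2-fold and reached 10 CPM at either age. In thick limb-like nuclei 2 of the 9 genes were raised at P3, Bsnd and Umod, and none was lowered, while 4.35% of 10988 genes were raised and 12.5% lowered. Slc12a3 fell just short of lowered in these nuclei, at 74.5 and 36.8 CPM (log2 ratio -0.9998). Without its 3 highest nuclei at each age it stood at 11.9 and 13.1 CPM. The median change over all genes was -0.09 on the log2 scale there and -0.17 in distal convoluted tubule-like nuclei. Bsnd had 13 UMIs (15.1 CPM) at E18.5 and 61 UMIs (41.5 CPM) at P3, a ratio of 2.74 (1.49 to 5.44). Umod had 79 UMIs (92.0 CPM) and 313 UMIs (213 CPM), a ratio of 2.32 (1.80 to 3.004). Umod was also 2.58 (1.62 to 4.18) times as high in endothelium-like nuclei, at 5.16 and 13.3 CPM, whereas Bsnd had 8 and 4 UMIs there.

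The other thick limb genes were under 2-fold. The ratio of P3 to E18.5 was 1.15 (1.12 to 1.17) for Slc12a1, 1.41 (1.19 to 1.68) for Kcnj1 and 1.62 (1.39 to 1.89) for Casr. It was 0.976 (0.799 to 1.19) for Cldn10 and 1.03 (0.734 to 1.45) for Cldn16. These ratios mix the sub-clusters, whose shares differed between the libraries. The Plau-led pair was the least alike, with 3 shared leading genes, so ratios within it may also compare unlike nuclei. Within the Plau-led sub-cluster Umod had a ratio of 1.54 (1.14 to 2.12) and Casr of 2.32 (1.68 to 3.28), and within the Nrxn3-led they had 1.91 (1.15 to 3.23) and 1.99 (1.64 to 2.43). Cldn10 had a ratio of 0.712 (0.564 to 0.904) in the former and 0.288 (0.134 to 0.568) in the latter, so it was lower at P3 inside both sub-clusters although it was even over the class. In the Nrxn3-led sub-cluster 1 of the 9 genes was raised (Bsnd, from 10 to 21 UMIs) and 3 were lowered (Cldn10, Slc12a3 and Trpm6), against 8.64% and 20.6% of all genes. The Trpm6 call rests on 7 UMIs at E18.5 and 1 at P3. In the Plau-led sub-cluster 4 were raised (Bsnd, from 2 to 39 UMIs, Casr, Cldn16 and Slc12a3), against 9.3% of all genes. The Slc12a3 UMIs were held by few nuclei. The 3 highest nuclei of the Nrxn3-led sub-cluster at E18.5 held 93.8% of its 64, leaving 9.99 CPM, and its P3 level was 5.39 CPM. The 3 highest of the Plau-led sub-cluster at P3 held 71.4% of its 49, leaving 14.6 CPM, and its E18.5 level was 10.2 CPM. Without the P3 cluster led by Enox1, which made up 63 of the 303 nuclei, the ratio over the class was 1.30 (1.10 to 1.53) for Casr and 0.691 (0.467 to 1.02) for Cldn16, and Bsnd (2.29) and Umod (2.66) were still raised, as were 5.02% of all genes in this comparison.

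In distal convoluted tubule-like nuclei the ratio was 1.33 (1.26 to 1.40) for Slc12a3 and 1.90 (1.64 to 2.21) for Trpm6. Of the 7 genes that reached the limit of 10 CPM, 1 was raised, Slc12a1, with a ratio of 2.16 (1.76 to 2.66), and none was lowered, while 5.7% of 10685 genes were raised there and 17.9% lowered. Without the 3 highest nuclei at each age, given above, Slc12a1 was still over 2-fold higher at P3, at 225 against 76.0 CPM. The E18.5 value lay within the 38.6 to 139 CPM of the endothelium-like clusters, a level read as background. The P3 value lay above their 61.1 to 197 CPM at that age, though those clusters were not trimmed of their highest nuclei. Untrimmed, the class stood at 531 CPM at P3. A leukocyte-like cluster held 529 CPM at that age and intercalated-like nuclei 521 CPM. Urothelium-like nuclei held 207 CPM and the other leukocyte-like cluster 198 CPM. Whether the P3 level exceeded background was not tested. Kcnj1 was even, with a ratio of 1.02 (0.77 to 1.36).

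**Figure D4:**
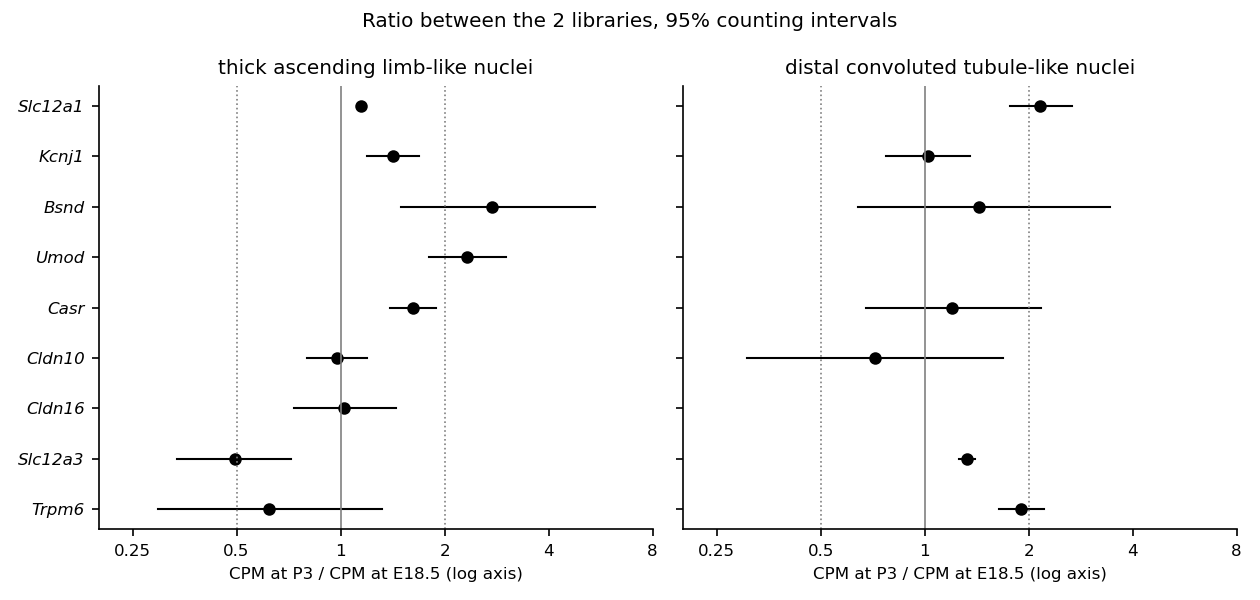
Level at P3 divided by level at E18.5 (horizontal axis, logarithmic) for each gene (vertical axis) in thick ascending limb-like and distal convoluted tubule-like nuclei, with 95% counting intervals as lines. Genes under 10 CPM at both ages are left out, the solid line marks 1 and dotted lines mark 0.5 and 2. Bsnd at 2.74 and Umod at 2.32 lie beyond 2 in thick limb-like nuclei, and Trpm6 lies at 1.90 in distal convoluted tubule-like nuclei.

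The ratio between the libraries moved with gene structure. In thick limb-like nuclei its median was 0.602 for genes with under 2000 bases of intron, 0.728 from 2000 to 10000, 0.917 from 10000 to 50000, 1.10 from 50000 to 200000 and 1.28 above that. In endothelium-like nuclei it went from 0.598 to 1.27. Bsnd has 6072 bases of intron and Umod 13809, so both stood above the median of genes of like length, whereas Slc12a1 with 71735 bases had a ratio of 1.15 where the median was 1.10. The part of this trend in the ratios was not tested.

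Of the 33 pathway genes, 2 were raised at P3 in thick limb-like nuclei and 2 were lowered, against 4.35% and 12.5% of all genes. The raised count was near its share and the lowered count below its share, so the genes are described singly. Egf, a growth factor known for sustaining Trpm6, had 3 UMIs (3.49 CPM) at E18.5 and 219 UMIs (149 CPM) at P3, a ratio of 42.7 (14.4 to 209). Within the sub-clusters it reached 407 CPM (151 UMIs) in the Nrxn3-led and 64.3 CPM (63 UMIs) in the Plau-led at P3, and podocyte-like nuclei held 54.7 and 129 CPM. Kcnj10, a channel of the blood side, stood at 31.4 and 64.7 CPM, a ratio of 2.06 (1.33 to 3.28), which was 1.52 (0.939 to 2.50) without the Enox1-led cluster. The lowered genes were Sgk1, a kinase induced by aldosterone, at 25.6 and 7.49 CPM, and Cldn3 at 12.8 and 3.41 CPM. Kcnj10 was likewise higher in distal convoluted tubule-like nuclei at P3, at 83.9 and 182 CPM, a ratio of 2.17 (1.53 to 3.14), and Egf stood there at 7.80 and 16.8 CPM.

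Over the whole library, where the number of nuclei of each class counts as well as the level in each nucleus, 4 of the 9 genes were raised at P3, against 3.04% of 11545 genes. Slc12a1 stood at 386 and 862 CPM, a ratio of 2.23, although it was 1.15 in thick limb-like nuclei. Casr had a ratio of 2.67, Umod of 2.41 and Cldn10 of 3.70.

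The genes outside the lists whose levels followed each gene most closely were found by the correlation of log2 levels over 26 clusters at E18.5 and 31 at P3, among 15489 genes. Clusters of 1 library share its depth and free RNA, so these values are descriptions. The gene most like Slc12a1 was Gm14002, its own antisense gene, with a mean r of 0.942. Gm14002 had 314 UMIs in thick limb-like nuclei at E18.5 and 463 at P3, or 2.71% and 2.03% of the Slc12a1 UMIs there, and whether it is its own transcript or reads of Slc12a1 could not be told from the counts. Kng2 was most like Kcnj1 (mean r 0.911), and Cwh43 was most like both Casr (0.854) and Cldn16 (0.929).

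Bsnd followed Efhd1 (mean r 0.902) and Atp6v1b1 (0.898), a subunit of the proton pump of intercalated cells, and Cldn10 followed E330021D16Rik (0.886), Gk (0.885) and Slc22a8 (0.879), an anion carrier of the proximal tubule. Umod followed Gm47708 (0.845) and Mrps6 (0.803). Slc12a3 and Trpm6 had the same closest genes, Emx1, Best3 and Tsc22d1, with mean r from 0.761 to 0.845, and were correlated with each other at 0.934 at E18.5 and 0.894 at P3. Among the 9 genes themselves, Cldn10 stood apart at P3, where its correlation with Cldn16 was 0.0343 and with Slc12a1 0.163, against 0.418 and 0.485 at E18.5.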

How the data were processed

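Nuclei of pooled kidneys were profiled with the Chromium Single Cell 3′ chemistry, 1 library per age. The authors deposited UMI counts per gene and barcode against mm10. The matrix header of the E18.5 library names Cell Ranger 7.0.0 and that of the P3 library 5.0.1, while the submitters' processing notes give 5.0.1 for both. Whether intron reads were counted is not given in the sources used here. The values were used as raw counts.

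Of 21600 barcodes at E18.5, 112 low in UMIs or genes and 218 high in mitochondrial UMIs (3 median absolute deviations) were removed, and 451 of 12216 at P3. The study states fewer nuclei at both ages than passed here. Doublets were called with scrublet (scanpy 1.11.5) and kept. Each library was clustered in R 4.3.3 with scran 1.30.0, bluster 1.12.0 and igraph 2.1.4 (2000 variable genes, 50 components, 10 neighbors, Walktrap). A class was named from at least 3 markers raised 2-fold. Intervals are exact Poisson for levels and exact conditional binomial for ratios. Thinning left out 1 thick limb-like and 11 endothelium-like nuclei at E18.5. The genes named beyond the lists were the 3 closest per gene by correlation with 10 CPM added.

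The interval code was tested on simulated data. The members, gene lists and markers were chosen with earlier results of these data known. Removing doublets, other quality limits, Leiden clustering, 20 neighbors, thinning, background subtraction and other fold and level limits were tried as alternatives. The sub-cluster ratios and the fit without the Enox1-led cluster were added after the data were seen. The other sample types of the study were not analysed here. Some pathway genes are counted in the lists but not reported singly here.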

Additional observations from a re-analysis of the deposited data

How the results depend on the processing

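No paired analysis was possible because each age had 1 library and the labels carry no replicate numbers. Of the recomputed counts and co-detection ratios, 27 moved by less than their limit (1.5 times for a count) and 11 moved further. Of the age ratios of single genes in thick limb-like nuclei, 56 moved by less than their limit and 25 further. Among these, the log2 ratio of Slc12a3 went from -0.9998 to 0.51 without called doublets, and that of Kcnj1 from 0.50 to -0.47 within the Pappa2-led sub-cluster. Leiden clustering named no thick limb-like or distal convoluted tubule-like class at either age, so 0 genes could be highest in one at E18.5 and 0 at P3. The same held for 20 neighbors at E18.5, with 0. Without called doublets the distal convoluted tubule-like class at E18.5 grew from 158 to 557 nuclei, and the observed over expected detection of Slc12a1 with Slc12a3 was 0.359. It was 0.246 and 0.391 with 2000 UMIs per nucleus. The number of the 9 genes lowered in thick limb-like nuclei was 1 after thinning, 1 after subtraction of the endothelium-like level and 2 at a fold of 1.5. The number of pathway genes raised there was 1 without doublets, 5 at a fold of 1.5, 1 with 5 CPM added and 1 without the Enox1-led cluster. The cause of these moves was not tested. Without the Enox1-led cluster 5.02% of all genes were raised. Under the other settings the share of all genes raised or lowered was not computed, so those counts have no background. Bsnd and Umod were each over 2-fold without called doublets (log2 1.02 and 1.02), with other quality limits, after thinning, after subtraction, with 5 CPM added and without the Enox1-led cluster, and had no value under Leiden clustering or 20 neighbors. Within the sub-clusters they were not always over 2-fold. The log2 ratio of Umod was 0.92 in the Nrxn3-led, 0.62 in the Plau-led and 1.81 in the Pappa2-led sub-cluster. That of Bsnd was 1.21, 2.38 and 0.27 in the same order. Depth limits genes with few UMIs, such as Bsnd with 13 and Trpm6 with 16 in thick limb-like nuclei at E18.5.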
